A study of Mus musculus with 4 samples.

Results

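Cadherins, tight junction proteins and keratins, with their partners and regulators, were examined in the nuclear RNA of mouse fibroblasts 6 h after induction of the transcription factor CDX2. The set holds 46 genes, chosen by symbol from the 25177 gene symbols measured: 7 cadherins, 3 catenins, 13 tight junction genes, 6 desmosome genes, 4 keratins, 8 epithelial regulators and 5 genes of epithelial surface proteins, trafficking and proteases. For each gene the transcript with the highest mean level was used, and the rule uses no measured difference between the groups. The 46 genes were nevertheless chosen with earlier results of these data known. NIH-3T3 is an established mouse embryonic fibroblast line. The 2 Dox libraries came from cells given doxycycline for 6 h, at 500 ng/ml in the extraction protocol and at the same figure per microlitre in the treatment protocol, and the 2 noDox libraries came from cells given solvent alone. All 4 were made from 500000 cells each, and both groups carried H2B-mCherry, the rtTA3G transactivator and CDX2 under the TRE3G promoter, so the transgene was present in the controls too. No library analysed here came from cells without the CDX2 transgene given doxycycline, so effects of CDX2 and of doxycycline itself cannot be told apart. The labels do not say whether the line is 1 clone or whether the replicates were separate cultures, and the p-values may then cover technical spread alone.

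Cadherins bind the same cadherin on a neighbouring cell through their extracellular repeats, and catenins tie their tails to actin at the adherens junction. Tight junctions seal the space between epithelial cells with claudins and occludin held on ZO scaffolds, and desmosomes anchor keratin filaments through plakophilins, plakoglobin and desmoplakin. Epithelial cells typically carry E-cadherin (Cdh1) and paired keratins such as Krt8 with Krt18, whereas fibroblasts carry N-cadherin (Cdh2) and vimentin. Factors of the Snai, Zeb and Twist families are known repressors of Cdh1, while Grhl2, Ovol and Esrp genes are known to maintain the epithelial state. CDX2 is best known from intestinal epithelium and trophectoderm.

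Among the 46 genes, the fibroblasts expressed the parts of cell junctions that many cell types share, and hardly any of those that epithelia add. Of the 46 genes, 16 reached the level at which they were tested, a geometric mean of 10 counts per library or 0.230 CPM (counts scaled to library size). A further 10 had no reads in any library and 20 had reads below that level. Of all 25177 gene symbols, 12355 were tested, 5345 had reads below that level and the rest had none. Of the 16 tested, 5 were lower with doxycycline (Cdh1, Cdh2, Ctnnd1, Grhl2 and Pkp4), 0 were higher and 11 were not called, by the adjusted p of the authors' deposited table (under 0.05). That is 31.2% of those tested, beside 24.7% of all 12355 genes tested, 11.3% higher and 13.4% lower. The share called in either direction was thus near the background. All 5 calls were falls, however, so the share lower was 31.2% beside 13.4%, and 0 were higher beside 11.3%. With 16 genes tested, from a set chosen with earlier results known, no conclusion is drawn from that difference. With all standard errors widened 2.08-fold, a stricter test set by the spread of t over all genes, Cdh1 alone of the 5 was called, and at a floor of 50 counts Cdh1 was not tested. Centring all fold changes on ribosomal protein genes, with p adjusted over the tested genes, gave 2178 of all genes higher and 1435 lower. That adjustment alone gave 1575 higher and 1817 lower, beside 1393 and 1654 as deposited. The falls ranged from 3.08-fold for Cdh1 to 1.16-fold for Pkp4, and 11 of the 16 fold changes lay below 0, with a median of -0.11 on the log2 scale beside -0.0011 over all genes tested, in the authors' deposited table.

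Levels were worked out for each group from the mean level and fold change in the authors' deposited table, which holds no value per library, so whether single libraries of the groups overlap cannot be seen. Its standard errors rest on a spread pooled over transcripts and not on each gene's own replicates. The libraries corresponded to about 45700000 effective counts as a geometric mean, if the usual offset was added before the logarithm. The floors given in counts rest on the same assumption. Among tested genes the standard error had a median of 0.080 (log2 scale). Cdx2 itself stood at 612 CPM in Dox cells and at 4.96 CPM in noDox cells, and its row does not part transgene from endogenous reads. All 12 fibroblast markers examined were tested, with a summed level of 6379 CPM in Dox cells and 7522 CPM in noDox cells, 7 of them lower and 1 higher in the authors' deposited table. Of 12 epithelial markers, all of them among the 46 genes, 1 was tested (Cdh1) and 4 had no reads (Cldn3, Cldn4, Esrp1 and Krt18), and their summed level was 0.853 CPM in Dox cells and 1.71 CPM in noDox cells. Without Cdh1, the other 11 summed to 0.389 CPM in Dox cells and 0.277 CPM in noDox cells, at levels too low to be tested. That opposite direction rested on Krt19, at 0.128 CPM in Dox cells and 0.0105 CPM in noDox cells. Genes without reads enter these sums at 0.0102 CPM in Dox cells and 0.0118 CPM in noDox cells each. Of the defining leukocyte markers Tyrobp had no reads, and the 4 leukocyte markers summed to 0.152 CPM in Dox cells and 0.193 CPM in noDox cells. The 4 endothelial markers summed to 3.95 CPM in Dox cells and 4.62 CPM in noDox cells, nearly all of it Cdh5. In bulk RNA, fewer cells that express a gene and less RNA per cell cannot be told apart.

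Promoters of 4 genes are printed because they span the range of expression: Ctnnd1 and Pkp4 are abundant and were lower with doxycycline, Crb3 had no reads, and Epcam had reads in Dox cells only, too few to tell a difference. Each runs from 250 bases before to 50 bases after the transcript start, from RefSeq's promoters on GRCm38.p6 (mm10 coordinates), and capitals mark matches to an E-box bound by Snai and Zeb factors (CACCTG, or CAGGTG on the other strand) and to a CDX-type motif (TTTATG, or CATAAA on the other strand).
Ctnnd1 promoter, chr2:84650691-84650990, minus strand: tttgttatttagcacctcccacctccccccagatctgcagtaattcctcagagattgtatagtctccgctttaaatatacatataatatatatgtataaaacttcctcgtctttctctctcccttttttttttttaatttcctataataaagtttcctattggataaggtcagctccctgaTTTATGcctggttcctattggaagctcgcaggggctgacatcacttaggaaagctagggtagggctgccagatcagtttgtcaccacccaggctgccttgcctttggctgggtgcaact
Pkp4 promoter, chr2:59160600-59160899, plus strand: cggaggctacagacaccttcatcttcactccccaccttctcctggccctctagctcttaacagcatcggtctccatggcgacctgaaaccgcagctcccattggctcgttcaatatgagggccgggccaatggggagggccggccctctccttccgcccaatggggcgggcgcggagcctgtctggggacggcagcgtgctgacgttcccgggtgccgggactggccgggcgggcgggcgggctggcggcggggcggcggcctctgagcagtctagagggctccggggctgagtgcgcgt
Crb3 promoter, chr17:57061951-57062250, plus strand: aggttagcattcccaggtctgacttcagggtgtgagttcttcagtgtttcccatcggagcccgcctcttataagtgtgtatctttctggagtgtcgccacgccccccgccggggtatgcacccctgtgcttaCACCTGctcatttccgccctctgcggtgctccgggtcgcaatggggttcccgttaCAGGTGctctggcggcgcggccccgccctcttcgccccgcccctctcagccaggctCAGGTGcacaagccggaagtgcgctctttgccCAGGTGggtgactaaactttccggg
Epcam promoter, chr17:87635729-87636028, plus strand: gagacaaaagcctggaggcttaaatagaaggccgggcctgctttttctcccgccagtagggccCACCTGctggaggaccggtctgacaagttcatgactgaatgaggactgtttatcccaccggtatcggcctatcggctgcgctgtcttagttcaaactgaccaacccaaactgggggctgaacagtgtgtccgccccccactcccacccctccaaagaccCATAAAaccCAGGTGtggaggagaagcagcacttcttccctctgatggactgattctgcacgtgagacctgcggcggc
The Ctnnd1 promoter held 1 CDX-type match at 69 bases before the start and the Pkp4 promoter printed held 0 matches of either kind. A second Pkp4 promoter in the reference (chr2:59161619-59161918) held 1 E-box, at 47 bases before its start. The Crb3 promoter held 4 E-boxes, at 118, 63 and 7 bases before the start and 25 bases after it. The Epcam promoter held E-boxes at 187 and 19 bases and a CDX-type match at 28 bases before the start.

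The promoters of 27 of the 46 genes were in the reference table used here, and Cdh1, Cdh2, Grhl2 and Krt19 were among the 19 others. In all, 17 of the 27 (63.0%) had the E-box in at least 1 promoter, against 22.6% of the 27025 genes there. By promoter this was 21 of 38 (55.3%), against 20.2% of 32851, where promoters of 1 gene can overlap, as those of Crb3 do. The matches lay mostly in genes that the fibroblasts expressed little: 15 of 19 genes below the tested level had one and 2 of 8 tested genes did. This split by level was not worked out over all genes, so whether it is particular to the set is not known. The CDX-type motif was found in 3 of the 27 genes (Ctnnd1, Jup and Epcam), near its share of 13.6% of all genes. The Grhl-type motif AACCGGTT was found in 0 of the 27, against 0.174% of all genes. A match only says that these letters are in the window, and the 3 motifs share no base with each other in the promoters printed.

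Among the 16 tested genes, levels per kilobase of exon fell into a high and a low tier. The 8 abundant genes were the catenins Ctnnb1, Ctnna1 and Ctnnd1, the claudin Cldn12, Cdh2, the plakophilin Pkp4, the ZO scaffold Tjp1 and plakoglobin (Jup), at 14.1 to 90.3 CPM per kb in Dox cells and 13.5 to 96.1 CPM per kb in noDox cells. The 8 low genes were Pkp2, Grhl2, Cdh1, Pkp3, Grhl1, Tjp3, Prss8 and Pkp1, at 0.0757 to 0.523 CPM per kb in Dox cells and 0.0983 to 0.701 CPM per kb in noDox cells. The 5 genes that were lower came from both tiers, with Cdh2, Ctnnd1 and Pkp4 from the high tier and Cdh1 and Grhl2 from the low one. The 2 largest falls were those of the low tier.

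**Figure D1:**
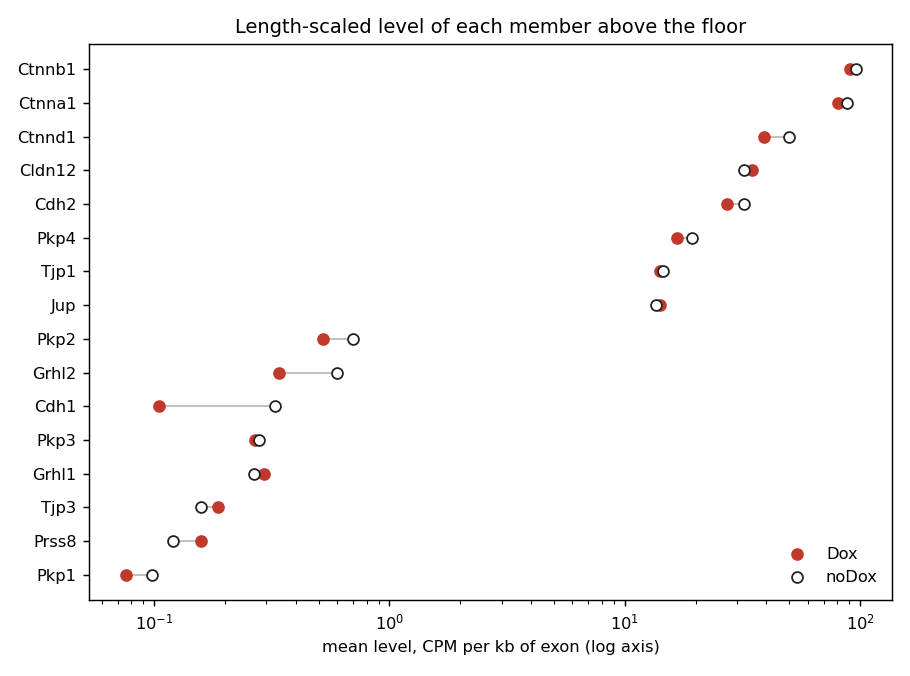
Level of the 16 tested genes in Dox and noDox cells (CPM per kb of exon, log axis), 1 point per gene and group, worked out from the authors' mean level and fold change, with no value per library. The 8 abundant genes lie between 13.5 and 96.1 CPM per kb and the 8 low ones between 0.0757 and 0.701 CPM per kb.

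Both tested cadherins were lower with doxycycline. Cdh1 (NM_009864, mm10 chromosome 8, 106603350 to 106670247), the gene of E-cadherin, stood at 0.464 CPM in Dox cells and at 1.43 CPM in noDox cells. It fell 3.08-fold (95% interval 2.27-fold to 4.18-fold), with a log2 fold change of -1.62 ± 0.22 (± standard error here and below) and an adjusted p of 2.14e-11 in the authors' deposited table. This was the 44th largest fall among the 12355 genes tested, at a mean of only 73.4 units per library. A unit is the smallest step of the table's values, and 2 units make 1 count if the usual offset was added. Whole counts would then give even units, yet 643 transcripts had 1 unit in 1 library. The size of a count is thus not certain. Cdh2 (NM_007664, chromosome 18, 16588877 to 16809246), the gene of N-cadherin and the main cadherin of these fibroblasts, stood at 130 CPM in Dox cells and at 155 CPM in noDox cells. It fell 1.19-fold (-0.25 ± 0.063 on the log2 scale, adjusted p 0.00106) in the authors' deposited table. Per kilobase of exon, Cdh2 was 257 times as abundant as Cdh1 in Dox cells and 99.1 times in noDox cells. Cdh1 thus made up 0.387% of the level of the pair in Dox cells and 0.999% in noDox cells.

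The 5 other cadherins were below the tested level. Cdh6 and Cdh13 had no reads in any library, and Cdh3 (P-cadherin), Cdh4 and Cdh11 had few. Cdh11, an osteoblast and mesenchymal cadherin, had a mean of 6.97 units per library.

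Catenins were among the most abundant of the genes and differed by at most 1.27-fold between the groups. Ctnnb1 (beta-catenin, which binds the cadherin tail and also acts in Wnt signalling) stood at 325 CPM in Dox cells and at 345 CPM in noDox cells, with -0.09 ± 0.060 on the log2 scale (adjusted p 0.438) in the authors' deposited table. Ctnna1 (alpha-catenin, the link to actin) stood at 293 CPM in Dox cells and at 321 CPM in noDox cells, with -0.13 ± 0.060 (adjusted p 0.146) in the authors' deposited table. Ctnnd1 (NM_007615, chromosome 2, 84600781 to 84650740) encodes p120-catenin, which holds cadherins at the cell surface, and was the 1 catenin that passed. It stood at 213 CPM in Dox cells and at 270 CPM in noDox cells, and fell 1.27-fold (-0.34 ± 0.061, adjusted p 5.39e-07) in the authors' deposited table. Its 9 transcripts that reached the tested level were all lower, with log2 fold changes between -0.343 and -0.339 in the authors' deposited table. These transcripts share most exons and reads, and 82.5% of the exon bases of the Ctnnd1 row lie in Gm28635 on the same strand as well. Of the exon bases of Ctnnb1, 21.1% overlap Ulk4 on the other strand, as do 6.60% of those of Prss8 with Kat8, and the strand setting of the counting was not given in these sources.

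Of 13 tight junction genes, 3 were tested and 0 passed in the authors' deposited table. Cldn12, an unusual claudin that lacks the common tail motif for ZO proteins, was the most abundant at 132 CPM in Dox cells and 122 CPM in noDox cells (0.11 ± 0.063, adjusted p 0.290) in the authors' deposited table. Adjusted over the tested genes alone, its p was 0.187. With centring on ribosomal protein genes added, it was called higher (0.16, adjusted p 0.0432). Tjp1, which encodes ZO-1, stood at 96.6 CPM in Dox cells and at 99.6 CPM in noDox cells (-0.043 ± 0.065, adjusted p 0.873) in the authors' deposited table, a difference that turned to 0.0025 after that centring. Its relative Tjp3 (ZO-3), known mainly from epithelia, stood at 0.542 CPM in Dox cells and at 0.459 CPM in noDox cells (0.24 ± 0.27, adjusted p 0.816) in the authors' deposited table. Classic barrier genes were nearly silent: Cldn3, Cldn4 and the polarity gene Crb3 had no reads, Ocln had at least 6 units over the Dox libraries and 0 over the noDox libraries, and F11r (JAM-A) had 0 over the Dox libraries and at least 3 over the noDox libraries. Cldn6 and Marveld2 (tricellulin) had units in noDox cells only, and Marveld3 had at least 1 over the Dox libraries and at least 2 over the noDox libraries. Cldn1 and Cldn7 had a mean of 15.6 and 8.10 units per library, below the 20 units needed.

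Desmosome genes ranged from abundant to barely detected. Jup, the gene of plakoglobin, which serves both desmosomes and adherens junctions, stood at 70.5 CPM in Dox cells and at 67.5 CPM in noDox cells (0.062 ± 0.066, adjusted p 0.774) in the authors' deposited table. Pkp4 (NM_001362993, chromosome 2, 59160850 to 59355205), a p120-related plakophilin found at adherens junctions as well, stood at 77.9 CPM in Dox cells and at 90.1 CPM in noDox cells. It fell 1.16-fold (-0.21 ± 0.065, adjusted p 0.0107), and all 12 of its tested transcripts were lower (-0.216 to -0.208) in the authors' deposited table. These transcripts overlap and share most reads, so they are not separate measurements. Pkp4 made up 95.1% of plakophilin levels per kilobase in Dox cells and 94.7% in noDox cells. The desmosomal plakophilins were low, and none passed: Pkp2 had the largest difference, with 1.50 CPM in Dox cells and 2.01 CPM in noDox cells (-0.42 ± 0.17, adjusted p 0.0842) in the authors' deposited table. Pkp1 (-0.38 ± 0.27, adjusted p 0.480) and Pkp3 (-0.061 ± 0.20, adjusted p 0.873) had wide errors at levels under 1 CPM in the authors' deposited table. Dsp (desmoplakin, the plaque protein that grips keratins) had a mean of 11.1 units per library and was not tested.

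**Figure D2:**
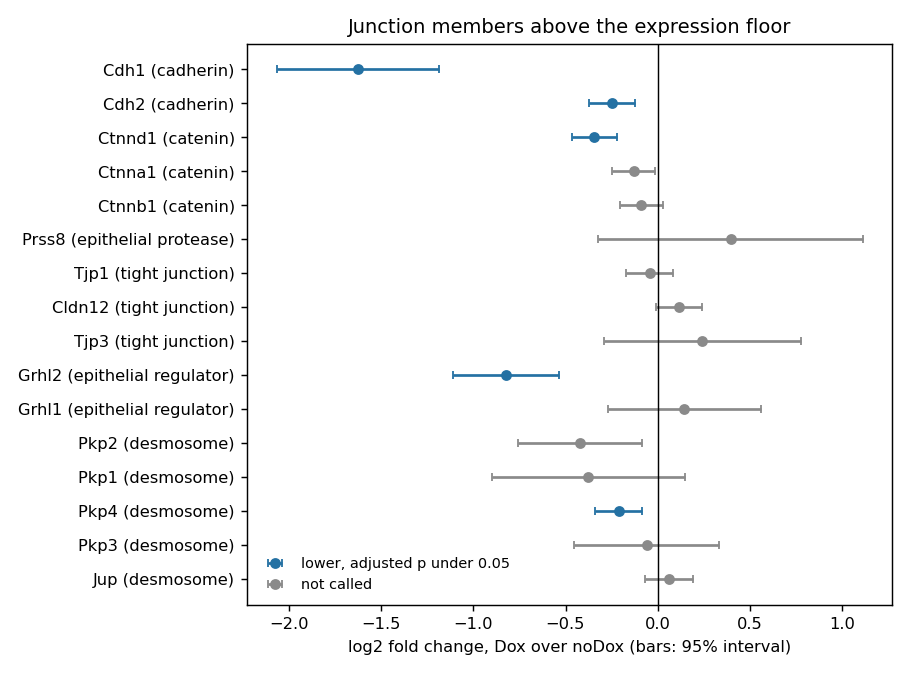
Log2 fold change (Dox over noDox) of the 16 tested genes in the authors' deposited table, with 95% intervals as bars. Cdh1 (-1.62) and Grhl2 (-0.82) lie farthest from 0, 5 genes pass lower and 0 pass higher.

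Keratins of simple epithelia were close to silent, and 0 of the 4 were tested. Krt18 had no reads, and its partner Krt8 had at least 2 units over the libraries of each group, so neither partner of this filament pair could be tested. Krt7, another simple-epithelial keratin, had at least 2 units over the Dox libraries and at least 4 over the noDox libraries. Krt19 (NM_008471, chromosome 11, 100140811 to 100145926), a keratin of gut and other simple epithelia, had at least 21 units over the 2 Dox libraries and 0 over the noDox libraries. Against a floor of 3 counts (6 units) over the noDox libraries, Krt19 was at least 3.03-fold higher with doxycycline, and its adjusted p was 2.07e-07 in the authors' deposited table. How its units divide between the 2 Dox libraries is not known. Among all 5345 genes with reads below the tested level, 4.6% passed in the authors' deposited table, and Krt19 was the 1 of 20 such genes here that did, a share near that background.

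Epithelial regulators gave 1 fall and 0 rises among 2 tested in the authors' deposited table. Grhl2 (NM_026496, chromosome 15, 37233036 to 37363568), a grainyhead-like factor known to activate Cdh1 and claudin genes in epithelia, stood at 1.67 CPM in Dox cells and at 2.96 CPM in noDox cells. It fell 1.77-fold (95% interval 1.45-fold to 2.16-fold, -0.82 ± 0.15 on the log2 scale, adjusted p 5.63e-07) in the authors' deposited table. Grhl1, its relative, stood at 1.01 CPM in Dox cells and at 0.911 CPM in noDox cells (0.14 ± 0.21, adjusted p 0.873) in the authors' deposited table. Grhl2 made up 53.8% of the level per kilobase of the pair in Dox cells and 69.4% in noDox cells. The splicing regulator Esrp1, the zinc finger factor Ovol2 and the ETS factor Ehf had no reads, Elf3 (an ETS factor of epithelia) had at least 3 units over the Dox libraries and 0 over the noDox libraries, and Ovol1 and Esrp2 stayed below the tested level.

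Of the epithelial surface proteins and proteases, the membrane-anchored serine protease gene Prss8 (prostasin) was tested, with 0.292 CPM in Dox cells and 0.222 CPM in noDox cells (0.39 ± 0.37, adjusted p 0.678) in the authors' deposited table. Epcam, an epithelial adhesion molecule, had at least 2 units over the Dox libraries and 0 over the noDox libraries, too few to tell a difference. Rab25, a GTPase of epithelial recycling endosomes, had at least 8 units over the Dox libraries and at least 2 over the noDox libraries. St14 (matriptase) stayed below the tested level, and its inhibitor gene Spint1 had no reads. In all, 4 of the 46 genes had units in Dox cells only (Epcam, Ocln, Krt19 and Elf3), 3 in noDox cells only (Cldn6, F11r and Marveld2) and 6 in both, while for 7 the split between groups could not be determined. Epcam and Cldn6 each rest on 2 units in 1 library, as did 808 of all 40739 transcripts, so such rows must fall in 1 group only. The share over all genes was not worked out, so these counts are no result about the set.

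The genes next to the largest falls and to Krt19 were also read. Beside Cdh1, Tango6 (12.8 kb away), a gene of Golgi organisation, stood at 12.8 CPM in Dox cells and at 16.8 CPM in noDox cells and fell by 0.40 ± 0.083 on the log2 scale (adjusted p 2.79e-05) in the authors' deposited table. Has3, a hyaluronan synthase gene 200 kb away, stood at 1.48 CPM in Dox cells and at 2.16 CPM in noDox cells and fell by 0.55 ± 0.16 (adjusted p 0.00568) in the authors' deposited table. On the other side of Cdh1, Cdh3 had a mean of 1.45 units and 1110028F18Rik had no reads. Both tested neighbours of Cdh1 were thus lower too, by less than Cdh1.

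Krt19 lies in the type I keratin cluster, whose genes moved in both directions. Krt13, a keratin of stratified mucosa 19.2 kb away, rose to 1.54 CPM in Dox cells, against 0.726 CPM in noDox cells (1.09 ± 0.18, adjusted p 7.78e-08) in the authors' deposited table. Krt14, a basal keratin 57.2 kb away, fell to 13.6 CPM in Dox cells, against 24.1 CPM in noDox cells (-0.82 ± 0.078, adjusted p 4.97e-24) in the authors' deposited table. Krt15 and Krt9, which lie between Krt13 and Krt14, were below the tested level and did not pass. Beside Grhl2, the 1 tested neighbour was Zfp706 (226 kb away, -0.11 ± 0.066, adjusted p 0.369) in the authors' deposited table, and Gm16136, Gm15941 and 4930447A16Rik had no reads.

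**Figure D3:**
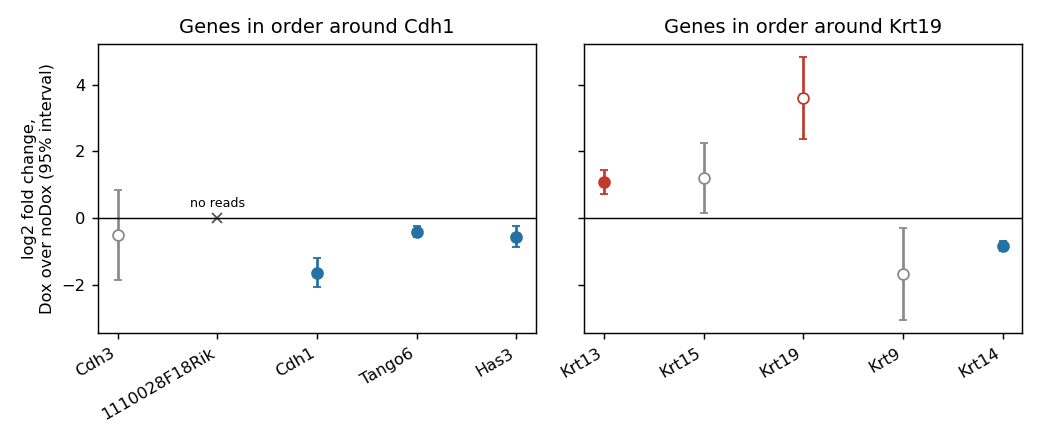
Log2 fold change (Dox over noDox) of the genes nearest to Cdh1 and Krt19 in the authors' deposited table, with 95% intervals. Tango6 (-0.40) and Has3 (-0.55) lie below 0 beside Cdh1, and Krt13 (1.09) and Krt14 (-0.82) lie on opposite sides of 0 near Krt19.

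Other genes of the same pathways, 164 in 9 lists that hold none of the 46, were set beside them. Of these, 71 were tested, 12 were higher, 19 were lower and 40 were not called in the authors' deposited table, and 43.7% were called beside 24.7% of all genes. The lists were chosen with earlier results of these data known, so no conclusion is drawn from that share or from the share within a list. With the widened standard errors 3 were higher and 11 lower. The transcription factors of epithelial-mesenchymal transition had 6 falls and 0 rises among 10 tested, with a median of -0.57 beside -0.0011 over all genes in the authors' deposited table. The homeobox gene Prrx1 stood at 64.3 CPM in Dox cells and at 130 CPM in noDox cells (-1.02 ± 0.065, adjusted p 1.02e-52) in the authors' deposited table. Foxc2, a forkhead factor of mesenchyme, fell by 0.81 ± 0.072 (adjusted p 1.57e-26) in the authors' deposited table. Zeb1 stood at 34.9 CPM in Dox cells and at 53.7 CPM in noDox cells and Twist2 at 29.4 CPM in Dox cells and at 44.8 CPM in noDox cells (-0.62 ± 0.069, adjusted p 3.08e-17, and -0.61 ± 0.070, adjusted p 2.63e-16) in the authors' deposited table. Snai1 (-0.68 ± 0.079, adjusted p 1.29e-15) and Snai2 (-0.54 ± 0.080, adjusted p 7.03e-10), named after their values were seen, were the other 2 that fell in the authors' deposited table. Snai1, Snai2, Zeb1 and Twist2, of families known to repress Cdh1, and Cdh1 itself were thus lower in the same comparison. Of the same families, Twist1 (-0.18 ± 0.074, adjusted p 0.0856) and Zeb2 (-0.13 ± 0.068, adjusted p 0.235) were not called in the authors' deposited table, and Snai3 had no reads. Exons of Twist2 overlap Gm29100 on the other strand, so its value may hold reads of both.

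Other cadherins had 1 fall and 1 rise among 4 tested in the authors' deposited table. Cdh26, a cadherin known in humans from inflamed gut epithelium, fell to 1.74 CPM in Dox cells, against 4.36 CPM in noDox cells (-1.33 ± 0.14, adjusted p 2.86e-19), and Cdh24 rose by 0.28 ± 0.10 (adjusted p 0.0387) in the authors' deposited table. Cdh5, the cadherin of endothelium (-0.23 ± 0.12, adjusted p 0.258), and Cdh19 (0.045 ± 0.17, adjusted p 0.873) were not called in the authors' deposited table. Adherens junction adaptors and nectins (17 tested) gave 3 rises and 5 falls in the authors' deposited table. Ctnnal1, a relative of alpha-catenin, rose to 26.2 CPM in Dox cells, against 15.5 CPM in noDox cells (0.76 ± 0.077, adjusted p 3.52e-21) in the authors' deposited table. Ablim1, an actin-binding gene, rose by 0.55 ± 0.098 (adjusted p 4.15e-07), while Jcad, a junction protein of endothelium, fell by 0.33 ± 0.064 (adjusted p 4.04e-06) and Limd1, a LIM domain adaptor, by 0.23 ± 0.068 (adjusted p 0.00565) in the authors' deposited table.

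Other tight junction and polarity genes (23 tested) gave 4 rises and 3 falls, with a median of -0.034 in the authors' deposited table. The scaffolds Magi3 and Magi2 moved in opposite directions, Magi3 rising by 0.51 ± 0.069 (adjusted p 5.67e-12) and Magi2 falling by 0.47 ± 0.10 (adjusted p 5.86e-05) in the authors' deposited table. Llgl2, a basolateral polarity gene, rose by 0.38 ± 0.084 (adjusted p 1.14e-04) in the authors' deposited table. Of 19 other claudins, 7 had no reads and 1 was tested, the claudin-domain gene Cldnd1, which rose to 87.3 CPM in Dox cells, against 58.0 CPM in noDox cells (0.59 ± 0.066, adjusted p 3.49e-17) in the authors' deposited table.

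Other keratins had 2 rises and 2 falls among 6 tested in the authors' deposited table, and they included the largest fall of all 12355 genes tested. Krt16, a keratin of stressed and wounded epidermis, stood at 0.313 CPM in Dox cells and at 3.16 CPM in noDox cells, 10.1-fold lower with doxycycline (95% interval 7.41-fold to 13.7-fold), with -3.33 ± 0.23 on the log2 scale and an adjusted p of 3.71e-46 in the authors' deposited table. Its second transcript, which spans the same coordinates and is not a separate measurement, gave -3.35 ± 0.23 in the authors' deposited table. Krt14, which forms filaments with Krt5 in basal epidermis, fell as given above, and Krt80, an epithelial keratin, rose by 0.57 ± 0.097 (adjusted p 1.07e-07) in the authors' deposited table. Krt14, Krt16 and Krt17 are near-identical over long stretches, so reads could be assigned wrongly among them and their values are uncertain.

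**Figure D4:**
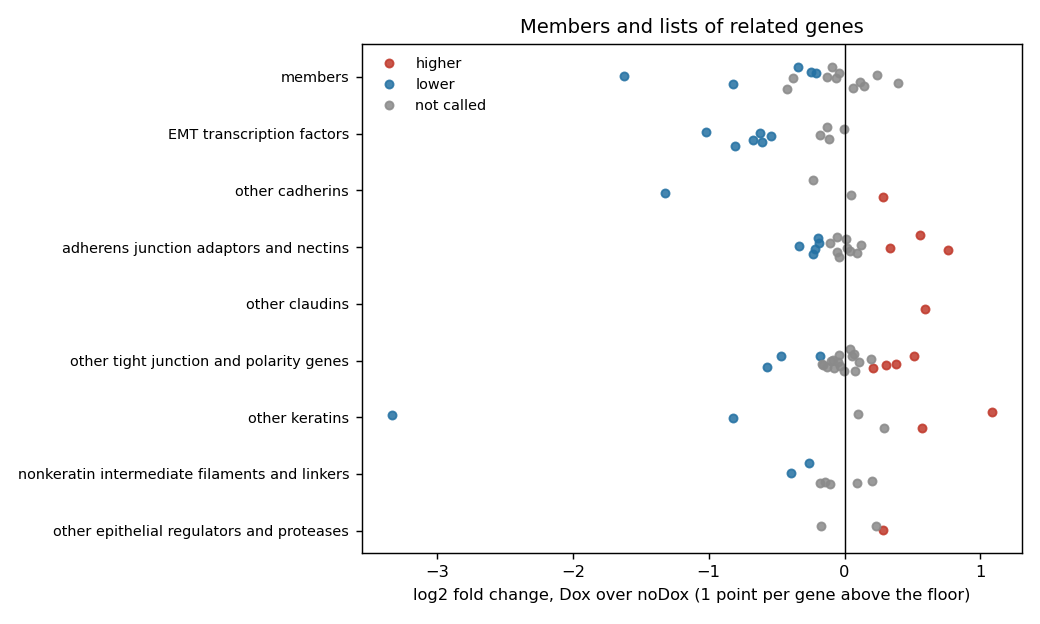
Log2 fold change (Dox over noDox) of each tested gene in the 46-gene set and in lists of related genes in the authors' deposited table, 1 point per gene, with called genes set apart by colour. The transcription factors of epithelial-mesenchymal transition have 6 falls and 0 rises, and Krt16 (-3.33) is the lowest point of the keratins.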

How the data were processed

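Nuclear RNA was sequenced in 4 directional libraries (2 Dox, 2 noDox), grouped by sample titles. Tools named in the submitters' processing notes, without their roles, are limma, edgeR, HOMER 4.10, Picard, SAMtools 1.10 and STAR 2.7.1a, with the build mm10. The authors' deposited table is limma output for 40739 RefSeq transcripts, per the file headers: log2 fold changes, mean log2 levels, a t score and raw and adjusted p-values. Values per library were not analysed here, so the authors' own test took the place of the planned one. The table does not name its direction, and the positive Cdx2 value sets it as Dox over noDox.

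Standard errors are the fold change divided by t, intervals at 95% assume normal errors, and group levels in CPM lie at equal log2 distances above and below the mean, 1 fold change apart. Genes with a geometric mean of at least 10 counts per library were tested, and called at the authors' adjusted p under 0.05. Transforming low values back gave whole products of library units in 100% of 7567 low rows (tolerance 0.05), and from these the split between groups was taken where 1 whole-number pair was clearly nearest (93.6% of 4449 rows). All 9211 rows without reads stand at -0.21 (log2), which corresponds to Dox libraries with an effective size 1.16-fold larger. The spread was pooled: level and fold explain 99.2% of the variance of log standard errors over 19541 rows. Scripts were tested on simulated data.

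Promoter sequences are from RefSeq (GRCm38.p6), matched by symbol for 27 of 46 genes, and overlaps are from GENCODE M21. Named are every gene of the set, Cdx2, and up to 4 tested genes with the smallest p in each related list; 1 gene that this rule takes is not reported here. The 46 genes and the lists were chosen with earlier results of these data known. Alternatives tried were the floor, the transcript, the adjustment, the centring and widened standard errors. Python 3.11.15, pandas 2.3.3, scipy 1.17.1 and matplotlib 3.10.9 were used. The planned comparison of cadherin proteins was not run.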

Additional observations from a re-analysis of the deposited data

Results flagged for a closer look

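Signals stood in genes below the tested level of 10 counts per library, outside the comparison of the tested genes. Krt19 had a log2 fold change of 3.60 (adjusted p 2.07e-07) in the authors' deposited table, with units in Dox cells and 0 in noDox cells. Cdh17, the intestinal LI-cadherin gene, had 2.59 (adjusted p 0.00287) in the authors' deposited table, with units in Dox cells and 0 in noDox cells. Nefl, a neurofilament gene, had -2.24 (adjusted p 0.0117) and Plekha7, an adherens junction gene, -1.11 (adjusted p 0.0276) in the authors' deposited table. Other transcripts of Plekha7 gave mixed calls, with adjusted p of 0.0256, 0.0256, 0.107 and 0.133 in the authors' deposited table. Fitted folds at such depth, and the p-values taken from them, depend on the offset added before the logarithm. Only the direction is read, and p is given as deposited. Beside these, 4.6% of all 5345 genes with reads below the tested level passed in the authors' deposited table.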

How the results depend on the processing

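No paired analysis was possible because the table used here gives a single fold change for each transcript and nothing by library; the replicate block, leaving out single libraries and the count model were not run for the same reason. Of the 5 genes that fell, all 5 were called lower without the floor, with the longest transcript, with adjustment over the genes tested and after centring. At a floor of 50 counts 10 genes of the set were tested and 4 were lower, Cdh1 falling below that floor. Without a floor 1 gene of the set was called higher (Krt19). Centring on 77 ribosomal protein genes, a shift of -0.046, called 1 gene of the set higher (Cldn12, 0.16, adjusted p 0.0432), turned Tjp1 to 0.0025 and called 2178 of all genes higher. Centring and widening both used p adjusted over the genes tested, an adjustment that alone called 1575 of all genes higher and 1817 lower. Widening all standard errors 2.08-fold, the robust SD of t, which holds real changes as well as error, left 1 gene of the set lower (Cdh1, adjusted p 0.0142), 3 higher and 11 lower in the related lists, and 190 higher and 386 lower over all genes. Under it Cdh2 (adjusted p 0.442), Ctnnd1 (0.107), Grhl2 (0.108) and Pkp4 (0.654) were lost, while Krt16, Cdh26, Prrx1, Foxc2, Zeb1, Twist2, Snai1, Snai2, Krt14 and Plec were among those still lower; at the floor of 50 counts Krt16 was not tested. Depth limits the 30 genes of the set below the tested level, for which an absent difference is not shown.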

Other observations

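Of 13 filament and linker genes other than keratins, 7 were tested, from 2.0 CPM for Des to 1973 CPM for Plec as means over both groups, and 2 fell and 0 rose in the authors' deposited table. Vim, the vimentin gene, stood at 1258 CPM in Dox cells and at 1506 CPM in noDox cells (-0.26 ± 0.057, adjusted p 8.13e-05) in the authors' deposited table. Plec, which encodes plectin, a linker of intermediate filaments to junctions and actin, stood at 1721 CPM in Dox cells and at 2262 CPM in noDox cells (-0.39 ± 0.056, adjusted p 7.25e-11) in the authors' deposited table. Nes (-0.18 ± 0.072, adjusted p 0.0713) and Macf1 (-0.11 ± 0.061, adjusted p 0.308) were not called in the authors' deposited table. Of 12 other desmosome genes, which include desmogleins and desmocollins, 0 were tested and 8 had no reads. Of 17 other epithelial regulators and proteases, 8 had no reads and 3 were tested, of which Klf5, a zinc finger factor of gut epithelium, rose to 18.7 CPM in Dox cells, against 15.4 CPM in noDox cells (0.28 ± 0.081, adjusted p 0.00571), while Elf1 (-0.17, adjusted p 0.112) and Ovol3 (0.24, adjusted p 0.470) were not called in the authors' deposited table.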
